A study of Mus musculus with 8 samples.

Results

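The 34 genes described here belong to the ATF4 pathway, the amino acid arm of the integrated stress response, and were taken as a named list of 8 transcription factors and regulators, 5 stress effectors, 7 enzymes of serine synthesis and mitochondrial folate metabolism, 7 other amino acid enzymes and 7 amino acid transporters. All 34 were matched by symbol among the 32728 genes of the count table, and all 34 were among the 16719 genes with enough counts to be tested. Poly(A)+ RNA was sequenced from mouse APS colon cancer organoids, which are cultured epithelial tumour cells of C57BL/6 mice in which Apc, Trp53 and Smad4 were targeted by CRISPR. There were 2 lines, CTO19 (labelled male) and apsMC706 (labelled female), with 2 libraries in each of 2 media. The noEGF groups were grown for 7 days without epidermal growth factor, and the EM groups for 3 days in the control medium with B27, noggin, the TGF-beta receptor inhibitor Galunisertib and EGF. All 4 groups carry the same 3 targeted genes, the age of the mice is not given in the sources used here, and the medium cannot be told apart from the days in culture nor the line from the sex of the mouse.

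ATF4 is a transcription factor whose mRNA is translated more when eIF2 is phosphorylated by kinases that sense amino acid shortage, protein folding stress, double-stranded RNA or lack of heme. It pairs with C/EBP family proteins on composite sites called CARE (C/EBP-ATF response elements) and turns on genes for amino acid uptake and synthesis, one-carbon metabolism, redox balance and, when the stress lasts, cell death. Since much of its control is on translation, the Atf4 mRNA level by itself does not report how much ATF4 protein a cell holds. In intestinal tumour cells the same genes supply serine, glycine, asparagine, proline and cysteine for growth.

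Promoter sequence for 28 of the 34 genes was found in the RefSeq table of the GRCm38.p6 build, which spans 250 bases before to 50 bases after each transcription start. Eif4ebp1, Aldh1l2, Cth, Slc7a5, Slc7a3 and Slc1a5 had no entry. The CARE letters TGATGNAA, searched on both strands, stood in 9 of these 28 genes (32.1%), against 4.51% of all 27025 genes in the table with promoters of the same length, a gene counting once if any of its promoters held them. The 9 genes were Asns, Atf3, Chac1, Got1, Nupr1, Pycr1, Slc7a11, Trib3 and Vldlr, and 5 of them are shown. Vldlr had the highest response of the 9 in apsMC706, Nupr1 the highest in CTO19, and Slc7a11 the lowest in both lines. Atf3 and Asns are shown as further examples and hold no extreme of the response of the 9 within either line. Each window is read 5′ to 3′ on the strand of the gene, and capitals mark the CARE letters or their reverse complement.
Vldlr (chr19:27216794-27216853, + strand): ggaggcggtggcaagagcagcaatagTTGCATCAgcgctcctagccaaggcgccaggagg
Nupr1 (chr7:126625547-126625606, - strand): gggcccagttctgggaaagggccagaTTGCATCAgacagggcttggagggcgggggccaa
Atf3 (chr1:191183410-191183469, - strand): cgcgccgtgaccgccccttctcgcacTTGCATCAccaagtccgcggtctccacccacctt
Asns (chr6:7693210-7693258, - strand): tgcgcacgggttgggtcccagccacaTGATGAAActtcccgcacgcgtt
Slc7a11 (chr3:50443646-50443705, - strand): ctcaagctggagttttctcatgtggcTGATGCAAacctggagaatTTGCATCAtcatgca
Slc7a11, the cystine importer, held the letters at 2 places on opposite strands. In Trib3 the match began 15 bases after the start, in the transcribed part, and in the other 8 genes every match lay before it. A match of letters is a description and not evidence of a bound site.

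Library totals ran from 35650262 to 38953838 counts, and mitochondrially encoded genes held 4.13 to 5.19% of counts in noEGF libraries and 2.94 to 3.68% in EM libraries. Levels are given in CPM, counts scaled to 1e6 per library with TMM factors. The 8 epithelial markers summed to 3032 to 3902 CPM over all libraries, although Cdx2, an intestinal transcription factor, was at 0.861 to 2.30 CPM in CTO19 and 9.23 to 10.2 CPM in apsMC706. The 7 fibroblast markers summed to 10.9 to 11.5 CPM in CTO19 noEGF libraries, against 1.83 to 1.91 CPM in CTO19 EM libraries, and to 7.77 to 8.93 against 4.05 to 4.14 CPM in apsMC706, where Col1a2 and Lum were at 0 in both noEGF libraries. In CTO19 noEGF, 0 of the 7 were at 0 in both libraries. Only 4 of the 7 had enough counts to be tested. By the test given below, 1 rose and 1 fell in CTO19, and 2 rose and 0 fell in apsMC706. The 6 immune markers summed to 6.16 to 8.18 against 0.787 to 0.897 CPM in CTO19. Only 2 of the 6 had enough counts to be tested. By the same test both rose in CTO19 (median log2 fold change 3.40), and neither was called in apsMC706. Cd3e and Adgre1 were at 0 in both CTO19 noEGF libraries. In apsMC706 the immune markers summed to 0.396 to 0.436 against 0.106 to 0.218 CPM. There, 2 of them, Itgam included, were at 0 in both noEGF libraries. The 4 endothelial markers summed to at most 1.79 CPM in any library. Transcripts of the 12 cell cycle genes on a separate list summed to 1820 to 1955 CPM in CTO19 noEGF libraries against 3075 to 3228 CPM in CTO19 EM libraries, and to 1665 to 1667 against 4328 to 4400 CPM in apsMC706, and the part of these shifts in the results below was not tested. Apc (59.8 to 198 CPM), Trp53 (13.0 to 33.3 CPM) and Smad4 (10.8 to 39.9 CPM) were counted in every library, and with no unedited group and no position of the edits in the labels these levels do not check the knockouts. In bulk RNA, fewer cells of a type and less RNA per cell cannot be told apart. The labels call the lines biological replicates and do not say that the 2 libraries of a group are separate cultures, so p-values within a line measure the spread between these libraries, which may be technical.

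The ATF4 pathway stood differently in the 2 lines after 7 days without EGF. In apsMC706, 17 of the 34 genes rose and 11 fell in noEGF against EM, led by 7.43-fold for Aldh1l2, 7.26-fold for Vldlr, 5.31-fold for Nupr1 and 4.93-fold for Atf3. In CTO19, 8 rose and 20 fell, and the largest changes were falls of 2.40-fold for Mthfd1l, 2.38-fold for Slc7a11 and 2.22-fold for Cth. A gene was called when its p-value from edgeR's quasi-likelihood test, adjusted over all tested genes by Benjamini-Hochberg, was under 0.05. Of all tested genes, 67.2% were called in apsMC706 (34.1% higher, 33.1% lower) and 68.0% in CTO19 (34.7% higher, 33.3% lower). Tested against a fold of 1.5, 11 members were higher and 4 lower in apsMC706, where 25.9% of all tested genes were called, and 2 were higher and 12 lower in CTO19, where 21.8% were called. Libraries of the 2 media lay apart for 32 members in apsMC706 and 29 in CTO19, and for 83.7% and 83.1% of all tested genes. The median log2 fold change of the 34 genes was 0.10 in apsMC706, against 0.00 over all tested genes, and -0.34 in CTO19, against 0.02 over all tested genes. Summed over the 34 genes, the CTO19 noEGF libraries held 2702 and 2682 CPM, against 4116 and 4070.2 CPM in CTO19 EM. The apsMC706 noEGF libraries held 4464 and 4376 CPM, against 4509.8 and 4662 CPM in apsMC706 EM. Abundant genes weigh most in these sums. Slc7a11 alone had a mean of 349 CPM in CTO19 noEGF and 830 CPM in CTO19 EM, and of 240 and 367 CPM in apsMC706.

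**Figure D1:**
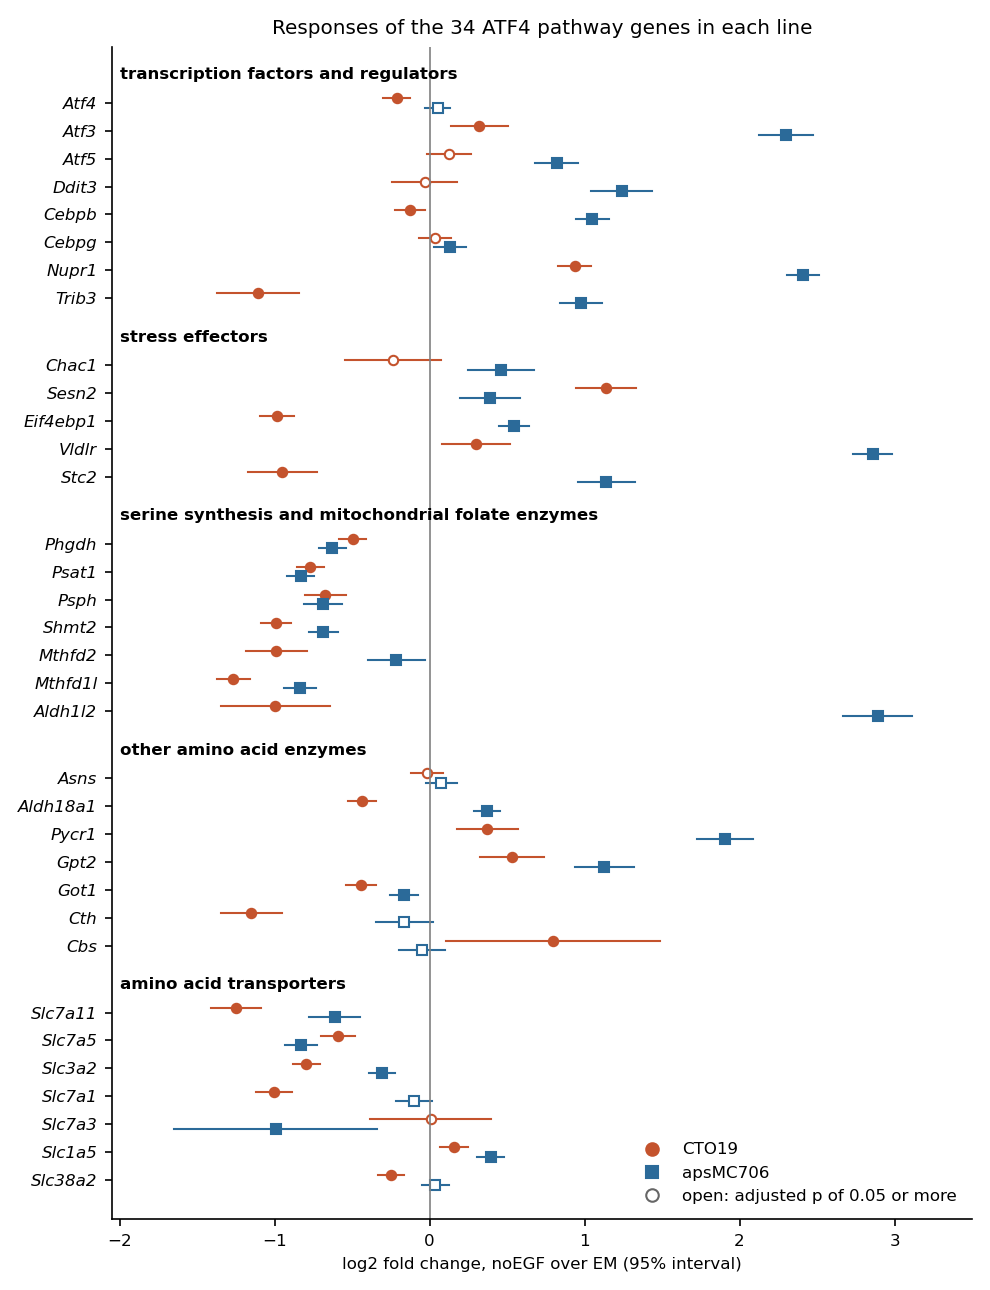
Log2 fold change of noEGF over EM (horizontal axis) for each of the 34 genes, with its 95% interval, in CTO19 (orange circles) and apsMC706 (blue squares); open symbols mark an adjusted p of 0.05 or more. The upper groups, factors and effectors, lie to the right in apsMC706, and the serine and folate enzymes lie to the left in both lines except Aldh1l2 in apsMC706.

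The response itself differed between the lines for 29 of the 34 genes, as tested by the difference of the log2 fold changes, CTO19 minus apsMC706. It was lower in CTO19 for 25 genes and higher for 4, where 56.0% of all tested genes were called (25.6% lower, 30.4% higher). Tested against a fold of 1.5, 13 members were lower in CTO19 and none was higher, where 19.1% of all tested genes were called. The median difference was -0.62 for the members and 0.06 over all tested genes. Of the 34 genes, 10 fell in both lines, 7 rose in both, and 6 fell in CTO19 and rose in apsMC706. Over all tested genes 18.5% fell in both lines, 17.1% rose in both and 7.40% fell in CTO19 and rose in apsMC706. The 6 genes with opposite calls were Cebpb, Trib3, Eif4ebp1, Stc2, Aldh1l2 and Aldh18a1. No member rose in CTO19 and fell in apsMC706, a pattern held by 5.88% of all tested genes.

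Among the 8 factors and regulators, 7 rose in apsMC706 and none fell, while in CTO19 2 rose (Atf3 and Nupr1) and 3 fell (Atf4, Cebpb and Trib3). Beside these counts and those of the other roles below, 34.1% of all tested genes rose and 33.1% fell in apsMC706. In CTO19 34.7% of all tested genes rose and 33.3% fell. The summed level of the 8 was 379 and 369 CPM in CTO19 noEGF, against 371 and 373 CPM in CTO19 EM, and 865 and 866 CPM in apsMC706 noEGF, against 569 and 600.4 CPM in apsMC706 EM. Abundant genes weigh most in these sums. In CTO19 the mean of Atf4 was 153 CPM in noEGF and 177 CPM in EM, while that of Nupr1 was 59.7 and 31.2 CPM. Atf4 itself, on chr15:80255184-80257541, stood at 155 and 151 CPM in CTO19 noEGF, against 175 and 179.8 CPM in CTO19 EM. In apsMC706 it stood at 393 and 388 CPM in noEGF, against 366 and 387 CPM in EM. The noEGF libraries of CTO19 lay below its EM libraries, those of apsMC706 lay just above, and every CTO19 library lay below every apsMC706 library. The fall in CTO19 was -0.21 ± 0.04 on the log2 scale (SE, adjusted p = 0.000253), a 1.16-fold change. The value in apsMC706 was 0.05 ± 0.04 (adjusted p = 0.258), but Atf4 was called higher there with DESeq2 size factors (0.11, adjusted p = 0.0217), with upper-quartile factors (0.13, adjusted p = 0.0101) and without either CTO19 noEGF replicate (0.14). DESeq2 size factors and upper-quartile factors moved log2 fold changes in apsMC706 by a median of 0.0579 and 0.0781 over all tested genes. The same shifts apply to the other genes below that are given with these factors in apsMC706. Leaving out a CTO19 library changes no apsMC706 count, but the scaling factors and the estimate of the spread are then computed again. This holds for the other genes below too, and the median shift it gave over all tested genes was not computed. The difference of the responses of Atf4 was -0.26 ± 0.06 (adjusted p = 0.000883).

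Atf3, an ATF family factor induced by many stresses, had 9.93 and 9.67 CPM in CTO19 noEGF, against 8.37 and 7.33 CPM in CTO19 EM. In apsMC706 it had 28.1 and 27.9 CPM in noEGF, against 5.74 and 5.64 CPM in EM. It rose in both lines without overlap of libraries, by 0.32 ± 0.09 in CTO19 (adjusted p = 0.00434) and 2.30 ± 0.08 in apsMC706 (adjusted p = 5.52e-12). Without the second EM library of CTO19 the call in that line was lost (0.23, adjusted p = 0.0563). Nupr1, a small stress-induced chromatin protein, had 60.7 and 58.8 CPM in CTO19 noEGF, against 32.4 and 29.9 CPM in CTO19 EM. In apsMC706 noEGF it had 180.2 and 181 CPM, against 34.3 and 33.7 CPM in apsMC706 EM. The EM levels of the lines were close, and the rise was 1.91-fold in CTO19 and 5.31-fold in apsMC706, a log2 difference of -1.47 ± 0.07 (adjusted p = 3.64e-10).

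Ddit3 encodes CHOP, a C/EBP family factor linked to cell death under lasting stress. It had 6.43 and 6.04 CPM in CTO19 noEGF, against 6.51 and 6.24 CPM in CTO19 EM, and 13.3 and 12.8 CPM in apsMC706 noEGF, against 5.64 and 5.42 CPM in apsMC706 EM. The CTO19 libraries overlapped (-0.03 ± 0.10, adjusted p = 0.779) and the apsMC706 noEGF libraries lay above all others (1.24 ± 0.09, adjusted p = 1.34e-08). Trib3 encodes a pseudokinase that binds ATF4 and dampens it. It had 2.93 and 3.30 CPM in CTO19 noEGF, against 6.51 and 6.94 CPM in CTO19 EM, and 83.1 and 85.8 CPM in apsMC706 noEGF, against 39.8 and 46.2 CPM in apsMC706 EM. It fell 2.15-fold in CTO19 (adjusted p = 1.79e-06) and rose 1.97-fold in apsMC706 (adjusted p = 4.03e-09).

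Cebpb, which encodes a C/EBP partner of ATF4, had 49.8 and 50.3 CPM in CTO19 noEGF, against 53.5 and 55.7 CPM in CTO19 EM, and 53.2 and 53.6 CPM in apsMC706 noEGF, against 25.2 and 26.3 CPM in apsMC706 EM. It rose by 1.05 ± 0.05 in apsMC706 (adjusted p = 9.14e-11). Its fall in CTO19 was -0.13 ± 0.05 (adjusted p = 0.0258), and that call was lost without the second CTO19 EM library (-0.10, adjusted p = 0.115) and without the first or the second CTO19 noEGF library (adjusted p = 0.0864 and 0.0625). The exons of Cebpb share 20.7% of their bases with Tmem189 on the opposite strand, and as the kit does not mark strand, reads there cannot be told apart. Atf5, an ATF4-related factor, rose in apsMC706 (0.82 ± 0.06, adjusted p = 2.86e-08) and had 0.12 ± 0.07 in CTO19 (adjusted p = 0.112). Cebpg, which encodes a further C/EBP partner, had 0.03 ± 0.05 in CTO19 and 0.13 ± 0.05 in apsMC706, where the call (adjusted p = 0.0251) was lost without either EM library or the second noEGF library of that line (adjusted p = 0.159, 0.078 and 0.292). The difference of the responses of Cebpg was not called (-0.10 ± 0.07, adjusted p = 0.248), but was without the first CTO19 noEGF library (-0.23, adjusted p = 0.012).

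**Figure D2:**
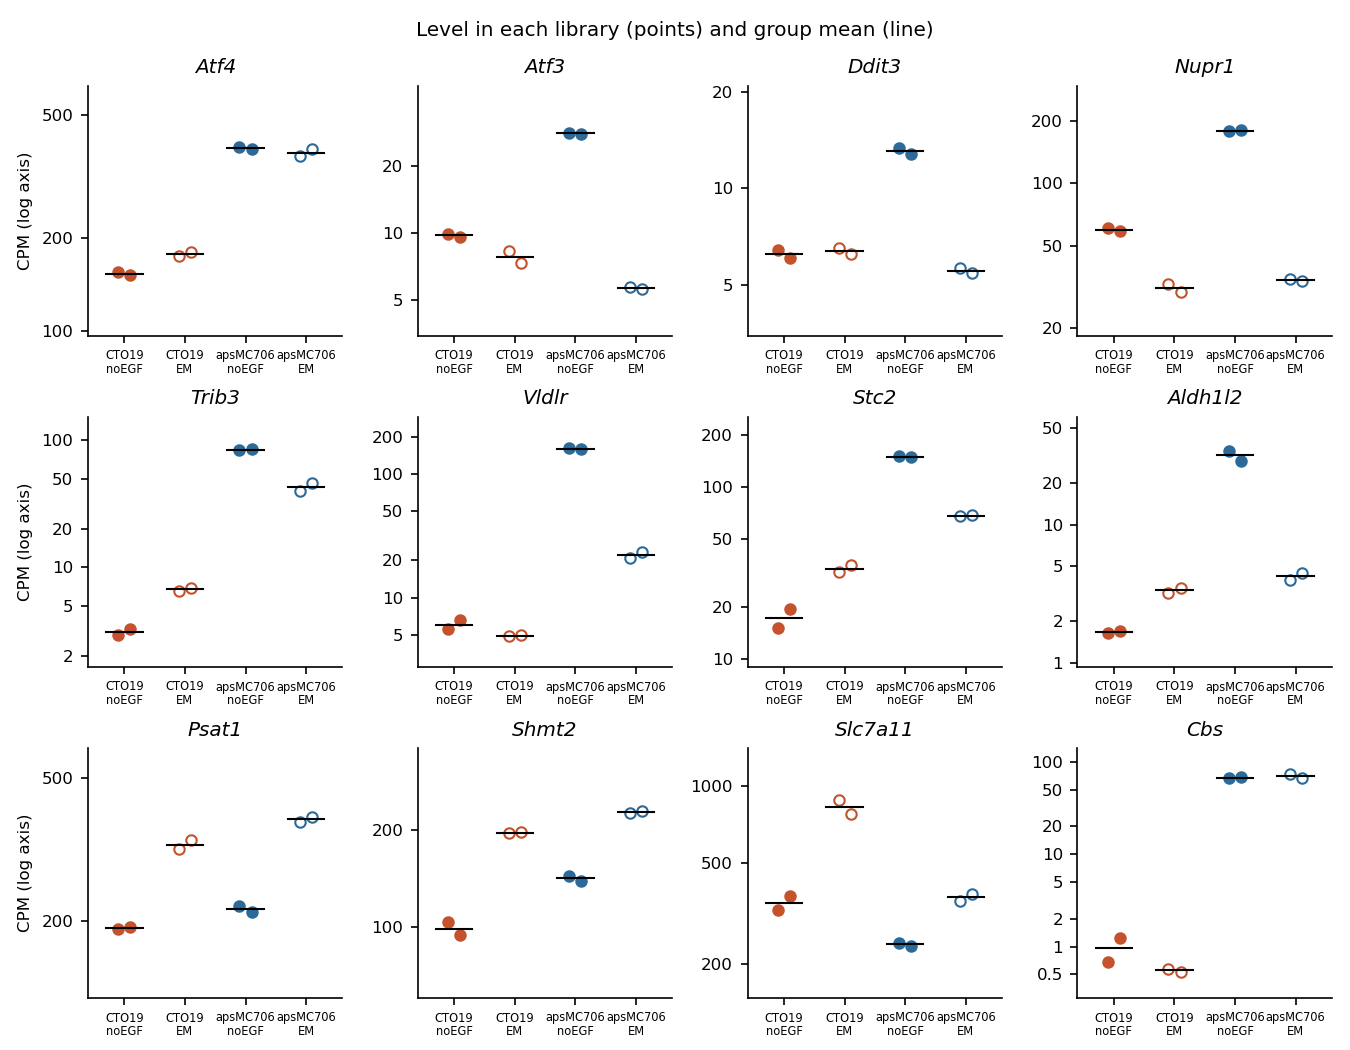
Level in each library (points, CPM on a log axis) of 12 of the genes, with the mean of the 2 libraries of a group as a line; filled points are noEGF and open points EM, with CTO19 in orange and apsMC706 in blue. Libraries of a group lie close together except those of Cbs in CTO19 noEGF, and Atf3, Nupr1, Vldlr and Aldh1l2 stand far above the rest in apsMC706 noEGF only.

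All 5 stress effectors rose in apsMC706, and in CTO19 2 rose (Sesn2 and Vldlr), 2 fell (Eif4ebp1 and Stc2) and Chac1 was not called. Their summed level was 71.6 and 74.7 CPM in CTO19 noEGF, against 100.2 and 105 CPM in CTO19 EM, and 459.7 and 455 CPM in apsMC706 noEGF, against 188 and 199.6 CPM in apsMC706 EM. Vldlr, a lipoprotein receptor gene known to be induced by ATF4, had 5.57 and 6.54 CPM in CTO19 noEGF, against 4.92 and 4.94 CPM in CTO19 EM. In apsMC706 it had 161 and 158 CPM in noEGF, against 20.8 and 23.2 CPM in EM. The rise of 2.86 ± 0.06 in apsMC706 (adjusted p = 5.86e-14) stood beside 0.30 ± 0.10 in CTO19 (adjusted p = 0.0192), and the CTO19 call was lost without the second noEGF library (0.18, adjusted p = 0.201) and without the first or the second EM library of that line (adjusted p = 0.0578 and 0.0575).

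Stc2 encodes the secreted glycoprotein stanniocalcin-2. It had 15.0 and 19.4 CPM in CTO19 noEGF, against 31.7 and 34.9 CPM in CTO19 EM, and 152 and 149 CPM in apsMC706 noEGF, against 67.8 and 68.4 CPM in apsMC706 EM. Eif4ebp1 encodes the translation repressor 4E-BP1. It had 25.8 and 24.1 CPM in CTO19 noEGF, against 49.1 and 49.6 CPM in CTO19 EM, and 105 and 109 CPM in apsMC706 noEGF, against 71.8 and 74.9 CPM in apsMC706 EM. Both genes moved in opposite directions without overlap of libraries: Stc2 fell 1.93-fold in CTO19 and rose 2.21-fold in apsMC706, and Eif4ebp1 fell 1.98-fold in CTO19 and rose 1.46-fold in apsMC706. The differences of the responses were -2.09 ± 0.13 for Stc2 (adjusted p = 6.25e-07) and -1.53 ± 0.07 for Eif4ebp1 (adjusted p = 2.97e-10).

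Sesn2 ran the other way. It encodes sestrin 2, a leucine sensor that restrains mTORC1, and had 19.94 and 19.95 CPM in CTO19 noEGF, against 9.26 and 8.85 CPM in CTO19 EM, and 14.4 and 14.0 CPM in apsMC706 noEGF, against 9.74 and 12.0 CPM in apsMC706 EM. It rose 2.20-fold in CTO19 and 1.31-fold in apsMC706, and the difference of 0.75 ± 0.13 was called (adjusted p = 0.000154). Chac1, a glutathione-degrading enzyme, rose in apsMC706 (0.46 ± 0.10, adjusted p = 0.00107), while its 5.22 and 4.75 CPM in CTO19 noEGF overlapped with 5.18 and 6.55 CPM in CTO19 EM (-0.24 ± 0.14, adjusted p = 0.155). Without the first CTO19 EM library Chac1 was called lower in that line (-0.40, adjusted p = 0.0313).

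The enzymes that make serine and pass its carbon to mitochondrial folate fell in both lines, apart from Aldh1l2. All 7 fell in CTO19, and 6 fell in apsMC706. Their summed level was 604 and 591 CPM in CTO19 noEGF, against 1008 and 1063 CPM in CTO19 EM, and 831 and 801 CPM in apsMC706 noEGF, against 1242 and 1273 CPM in apsMC706 EM. The serine pathway proper runs through phosphoglycerate dehydrogenase (Phgdh), phosphoserine aminotransferase (Psat1) and phosphoserine phosphatase (Psph). Psat1 had 190.2 and 192 CPM in CTO19 noEGF, against 317 and 336 CPM in CTO19 EM, and 220.3 and 212 CPM in apsMC706 noEGF, against 379 and 389.9 CPM in apsMC706 EM. Its noEGF libraries lay below its EM libraries in each line, and the fall was 1.71-fold in CTO19 and 1.78-fold in apsMC706 (adjusted p = 6.26e-10 and 1.45e-10). Phgdh fell 1.41-fold in CTO19 and 1.55-fold in apsMC706, and Psph fell 1.59-fold and 1.61-fold.

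For these 3 enzymes the difference of the responses was not called. It was 0.13 for Phgdh with a 95% interval of 0.006 to 0.255 (adjusted p = 0.071), 0.06 for Psat1 with an interval of -0.061 to 0.184 (adjusted p = 0.384) and 0.01 for Psph with an interval of -0.166 to 0.193 (adjusted p = 0.921). The difference of Phgdh was called without the second CTO19 EM library (0.19, adjusted p = 0.00193). Psph shares 10.4% of its exon bases with Cct6a on the opposite strand.

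In the mitochondrial folate branch the fall was larger in CTO19. Shmt2, the mitochondrial serine hydroxymethyltransferase, had 103 and 94.0 CPM in CTO19 noEGF, against 196 and 197 CPM in CTO19 EM, and 144 and 139 CPM in apsMC706 noEGF, against 226 and 229.7 CPM in apsMC706 EM. Mthfd1l, the mitochondrial formate-releasing enzyme, had 54.3 and 49.3 CPM in CTO19 noEGF, against 123 and 126 CPM in CTO19 EM, and 63.3 and 61.8 CPM in apsMC706 noEGF, against 111 and 112 CPM in apsMC706 EM. Both fell without overlap in each line, with differences of -0.31 ± 0.06 for Shmt2 (adjusted p = 0.000793) and -0.43 ± 0.07 for Mthfd1l (adjusted p = 7.08e-05). Mthfd2, the enzyme between them in the pathway, had 43.3 and 36.5 CPM in CTO19 noEGF, against 75.0 and 83.4 CPM in CTO19 EM, and 92.1 and 88.2 CPM in apsMC706 noEGF, against 99.8 and 109 CPM in apsMC706 EM. It fell 1.99-fold in CTO19 (adjusted p = 6.25e-06). In apsMC706 the fall of Mthfd2 was 1.16-fold (-0.21 ± 0.08, adjusted p = 0.0413), and that call was lost with DESeq2 size factors (-0.16, adjusted p = 0.118) and when any library other than the first apsMC706 EM library was left out (adjusted p = 0.0586 to 0.218).

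Aldh1l2, the mitochondrial 10-formyltetrahydrofolate dehydrogenase, parted from this branch. It had 1.64 and 1.71 CPM in CTO19 noEGF, against 3.21 and 3.48 CPM in CTO19 EM, and 34.2 and 28.8 CPM in apsMC706 noEGF, against 3.995 and 4.49 CPM in apsMC706 EM. The apsMC706 noEGF libraries stood far above the other 6, and the CTO19 noEGF libraries were the lowest. It rose 7.43-fold in apsMC706 (2.89 ± 0.10, adjusted p = 6.47e-12) and fell 1.99-fold in CTO19 (-0.99 ± 0.16, adjusted p = 8.12e-05), and its difference of -3.89 ± 0.20 (adjusted p = 7.88e-10) had the largest size among the 34 genes. Its exons share 14.1% of their bases with D10Wsu102e on the opposite strand.

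Of the 7 other amino acid enzymes, 3 rose and 3 fell in CTO19, close to the shares over all tested genes (34.7% and 33.3%). In apsMC706 3 rose and 1 fell, where 34.1% of all tested genes rose and 33.1% fell. Asns, the asparagine synthetase and a textbook ATF4 target, had 109 and 99.4 CPM in CTO19 noEGF, against 103 and 107 CPM in CTO19 EM, and 187 and 183 CPM in apsMC706 noEGF, against 171 and 179.8 CPM in apsMC706 EM. It was the only member called in neither line (-0.02 ± 0.05, adjusted p = 0.792, in CTO19 and 0.08 ± 0.05, adjusted p = 0.172, in apsMC706). Asns was called higher in apsMC706 with DESeq2 size factors (0.13, adjusted p = 0.0206), with upper-quartile factors (0.15, adjusted p = 0.0103) and without either CTO19 noEGF library (0.17), and its difference was called without the first of these (-0.24, adjusted p = 0.00325).

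The proline pathway gave different calls for its enzymes. Pycr1, the last step in mitochondrial proline synthesis, had 10.5 and 12.0 CPM in CTO19 noEGF, against 8.86 and 8.54 CPM in CTO19 EM, and 30.9 and 27.6 CPM in apsMC706 noEGF, against 7.70 and 7.90 CPM in apsMC706 EM. It rose 1.29-fold in CTO19 (adjusted p = 0.00248) and 3.75-fold in apsMC706 (adjusted p = 6.07e-11), with noEGF libraries above EM libraries in each line. Aldh18a1, which makes the first committed intermediate of proline, had 65.2 and 61.7 CPM in CTO19 noEGF, against 85.9 and 86.1 CPM in CTO19 EM, and 176 and 177 CPM in apsMC706 noEGF, against 135 and 138 CPM in apsMC706 EM. It fell by 0.44 in CTO19 and rose by 0.37 in apsMC706 on the log2 scale (adjusted p = 3.21e-07 and 9.18e-07).

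Gpt2, the mitochondrial alanine aminotransferase, had 28.4 and 26.4 CPM in CTO19 noEGF, against 19.9 and 18.0 CPM in CTO19 EM, and 59.4 and 54.2 CPM in apsMC706 noEGF, against 23.6 and 28.4 CPM in apsMC706 EM. It rose in both, 1.45-fold in CTO19 and 2.19-fold in apsMC706. Got1, the cytosolic aspartate aminotransferase, fell in both (-0.44 ± 0.05 in CTO19 and -0.16 ± 0.04 in apsMC706). The apsMC706 call of Got1 (adjusted p = 0.003) was lost with upper-quartile factors (adjusted p = 0.0901) and without the first or the second CTO19 noEGF library (adjusted p = 0.148 and 0.147).

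Cth and Cbs form the transsulfuration pathway, which makes cysteine from homocysteine. Cth had 11.2 and 10.2 CPM in CTO19 noEGF, against 22.3 and 25.1 CPM in CTO19 EM, and 21.4 and 18.1 CPM in apsMC706 noEGF, against 21.6 and 22.6 CPM in apsMC706 EM. It fell 2.22-fold in CTO19 (adjusted p = 9.02e-08) and had -0.16 ± 0.09 in apsMC706 (adjusted p = 0.113), where it was called lower without the first noEGF library (-0.29, adjusted p = 0.0203). Cbs was low in CTO19, with 0.673 and 1.24 CPM in noEGF, against 0.579 and 0.534 CPM in EM. In apsMC706 it had 66.3 and 68.6 CPM in noEGF, against 73.3 and 66.3 CPM in EM. The rise of Cbs in CTO19 (0.80 ± 0.32, adjusted p = 0.0408), on 25 and 50 counts against 20 and 19 counts, rested on the second noEGF library, without which it was 0.28 (adjusted p = 0.516), and was lost too without either CTO19 EM library or either apsMC706 noEGF library (adjusted p = 0.0553 to 0.195). The difference of the responses of Cbs (0.85 ± 0.32, adjusted p = 0.0419) held only without the second apsMC706 EM or the first CTO19 noEGF library, and was lost without each of the other 6 (adjusted p = 0.0571 to 0.616), falling to 0.24 without the second CTO19 noEGF library.

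Of the 7 transporters, 5 fell and 1 rose in CTO19, and 4 fell and 1 rose in apsMC706. Their summed level was 1387 and 1400.5 CPM in CTO19 noEGF, against 2348 and 2234 CPM in CTO19 EM, and 1704 and 1666 CPM in apsMC706 noEGF, against 2009.9 and 2076 CPM in apsMC706 EM. Slc7a11 (xCT), which brings in cystine in exchange for glutamate, had 328 and 370.3 CPM in CTO19 noEGF, against 881 and 779 CPM in CTO19 EM, and 243 and 237 CPM in apsMC706 noEGF, against 356 and 378 CPM in apsMC706 EM. The CTO19 EM libraries were the highest of all 8, and the fall was 2.38-fold in CTO19 (adjusted p = 2.97e-07) and 1.53-fold in apsMC706 (adjusted p = 4.41e-05), a difference of -0.64 ± 0.10 (adjusted p = 0.000509). Slc3a2, the CD98 heavy chain that carries Slc7a11 and Slc7a5 to the membrane, had 154 and 156 CPM in CTO19 noEGF, against 264 and 275 CPM in CTO19 EM, and 198 and 194 CPM in apsMC706 noEGF, against 237 and 247 CPM in apsMC706 EM. It fell in both lines as well (1.74-fold in CTO19 and 1.24-fold in apsMC706).

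Slc7a5 (LAT1), the light chain for leucine and other large neutral amino acids, had 141 and 154 CPM in CTO19 noEGF, against 214 and 232 CPM in CTO19 EM, and 296 and 294 CPM in apsMC706 noEGF, against 509 and 538 CPM in apsMC706 EM. It fell 1.51-fold in CTO19 and 1.78-fold in apsMC706, and its difference of 0.24 ± 0.07 (adjusted p = 0.00989) was lost without the second apsMC706 EM library (0.20, adjusted p = 0.0689), without the second CTO19 noEGF library (0.09, adjusted p = 0.264) and with upper-quartile factors (0.16, adjusted p = 0.0693). Slc7a1, the cationic amino acid transporter CAT1, had 172 and 151 CPM in CTO19 noEGF, against 330.1 and 318 CPM in CTO19 EM, and 313 and 301 CPM in apsMC706 noEGF, against 322 and 335 CPM in apsMC706 EM. It fell 2.01-fold in CTO19 (adjusted p = 4.01e-09) and had -0.10 ± 0.05 in apsMC706 (adjusted p = 0.121), a difference of -0.91 ± 0.08 (adjusted p = 4.08e-07).

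Slc1a5 (ASCT2), a glutamine importer, was the transporter that rose in both lines, by 0.15 ± 0.04 in CTO19 and 0.39 ± 0.04 in apsMC706 (adjusted p = 0.00474 and 7.22e-07). Slc38a2 (SNAT2), which carries small neutral amino acids, fell in CTO19 (-0.25 ± 0.04, adjusted p = 6.41e-05) and overlapped between media in apsMC706 (0.04 ± 0.04, adjusted p = 0.426), where it was called higher with DESeq2 size factors (0.10, adjusted p = 0.0457), with upper-quartile factors (0.12, adjusted p = 0.0208) and without either CTO19 noEGF library (0.13). Slc7a3, a further cationic transporter, was at 2.53 and 3.11 CPM in CTO19 noEGF, against 3.10 and 2.53 CPM in CTO19 EM, and at 0.491 and 0.370 CPM in apsMC706 noEGF, against 0.926 and 0.790 CPM in apsMC706 EM. Its fall in apsMC706 (-0.99 ± 0.31, adjusted p = 0.00999) was lost without the first EM library (adjusted p = 0.0633) or the second noEGF library (adjusted p = 0.0814) of that line, and its difference of 1.00 ± 0.36 (adjusted p = 0.027) was lost without the first apsMC706 EM, the second apsMC706 noEGF, the second CTO19 EM or the second CTO19 noEGF library (adjusted p = 0.0696 to 0.128).

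Over both lines together, 8 of the 34 genes rose and 12 fell in noEGF against EM, where 48.8% of all tested genes were called (25.5% higher, 23.3% lower). The genes that rose were Atf3, Atf5, Nupr1, Sesn2, Vldlr, Pycr1, Gpt2 and Slc1a5. Those that fell were Phgdh, Psat1, Psph, Shmt2, Mthfd2, Mthfd1l, Got1, Cth, Slc7a11, Slc7a5, Slc3a2 and Slc7a1. Tested against a fold of 1.5, 1 rose and 4 fell, where 13.3% of all tested genes were called. Libraries of the media lay apart in the same direction in both lines for 20 members, and for 48.4% of all tested genes. Mthfd1l had the largest fall (-1.05 ± 0.10, adjusted p = 0.000241) and Psat1 the smallest p (-0.80 ± 0.06, adjusted p = 9.26e-05), while the largest rises were 1.69 ± 0.52 for Vldlr (adjusted p = 0.0309) and 1.68 ± 0.29 for Nupr1 (adjusted p = 0.00301). This fit counts each library and not each line as a replicate. When the replicate libraries were added together, which left 1 value for each line in each medium, edgeR called none of the 34 and none of all tested genes (lowest adjusted p = 0.0846), although 8 members and 2809 of all genes had an unadjusted p under 0.05.

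Some calls over both lines were lost when a single library was left out. Atf3, Atf5 and Vldlr were lost without any one of the 4 apsMC706 libraries (adjusted p = 0.0543 to 0.0889 for Atf3, 0.0712 to 0.0873 for Atf5 and 0.0592 to 0.113 for Vldlr), and Pycr1 without the first or the second apsMC706 EM library (adjusted p = 0.0569 and 0.0599). Slc7a1 was lost without any one of the 4 CTO19 libraries (adjusted p = 0.0899 to 0.186), Cth without any of these or the second apsMC706 noEGF library (adjusted p = 0.0529 to 0.151), and Got1 and Mthfd2 without the first or the second CTO19 noEGF library (adjusted p = 0.0968 and 0.0969 for Got1, 0.102 and 0.088 for Mthfd2). Ddit3, with 0.61 ± 0.25 and an adjusted p of 0.0818, was called without the second CTO19 noEGF library (0.84) and with DESeq2's Wald test (adjusted p = 0.0427).

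The lines also stood apart within each medium. In EM, 22 of the 34 genes were lower in CTO19 than in apsMC706 and 8 were higher, where 71.3% of all tested genes were called (33.8% lower, 37.5% higher). In noEGF, 29 were lower in CTO19 and 3 higher, where 80.0% were called (34.3% lower, 45.7% higher). Tested against a fold of 1.5, 9 members were lower and 3 higher in EM, where 33.1% of all tested genes were called, and 20 were lower and 1 higher in noEGF, where 43.6% were called. The median log2 difference, CTO19 minus apsMC706, was -0.30 in EM and -0.91 in noEGF for the members, against 0.02 and 0.13 over all tested genes. These comparisons share their libraries with those between the media and add no independent samples.

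Cbs was 69.4-fold lower in CTO19 than in apsMC706 in noEGF and 125-fold lower in EM. In noEGF, Trib3 was 27.0-fold lower in CTO19 (-4.76 ± 0.09, adjusted p = 2.19e-15), Vldlr 26.3-fold lower (-4.72 ± 0.07, adjusted p = 1.15e-16), Aldh1l2 18.7-fold lower (-4.23 ± 0.12, adjusted p = 1.3e-13) and Stc2 8.70-fold lower (-3.12 ± 0.09, adjusted p = 7.11e-10). Atf4 was 2.55-fold lower in CTO19 in noEGF (-1.35 ± 0.04) and 2.13-fold lower in EM (-1.09 ± 0.04). The 3 genes that were higher in CTO19 in noEGF were Slc7a3 (6.53-fold), Slc7a11 (1.46-fold) and Sesn2 (1.40-fold). Cebpb was 2.12-fold higher in CTO19 in EM and not called in noEGF (-0.09 ± 0.05, adjusted p = 0.0759), where the call was made with DESeq2 size factors (-0.15, adjusted p = 0.00643), with upper-quartile factors (-0.19, adjusted p = 0.00175) and without the first or the second CTO19 noEGF library (-0.18 and -0.19) or the second CTO19 EM library (adjusted p = 0.0493). Slc38a2 was the other member not called in noEGF (0.03 ± 0.04, adjusted p = 0.46). In EM, 7 line calls of a size of at most 0.34 on the log2 scale were lost when some single library was left out. Cebpg was lost without the second apsMC706 EM library (adjusted p = 0.058), Mthfd1l and Slc3a2 without the first (adjusted p = 0.0503 and 0.0648), Sesn2 without the second EM library of apsMC706 or of CTO19 (adjusted p = 0.372 and 0.0988), and Aldh1l2 without the second apsMC706 or either CTO19 EM library (adjusted p = 0.0527 to 0.209). Nupr1 was lost without any apsMC706 library or the second CTO19 EM library (adjusted p = 0.0592 to 0.266), and Atf5 without the first apsMC706 EM library, either CTO19 EM library or either apsMC706 noEGF library (adjusted p = 0.0521 to 0.352).

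**Figure D3:**
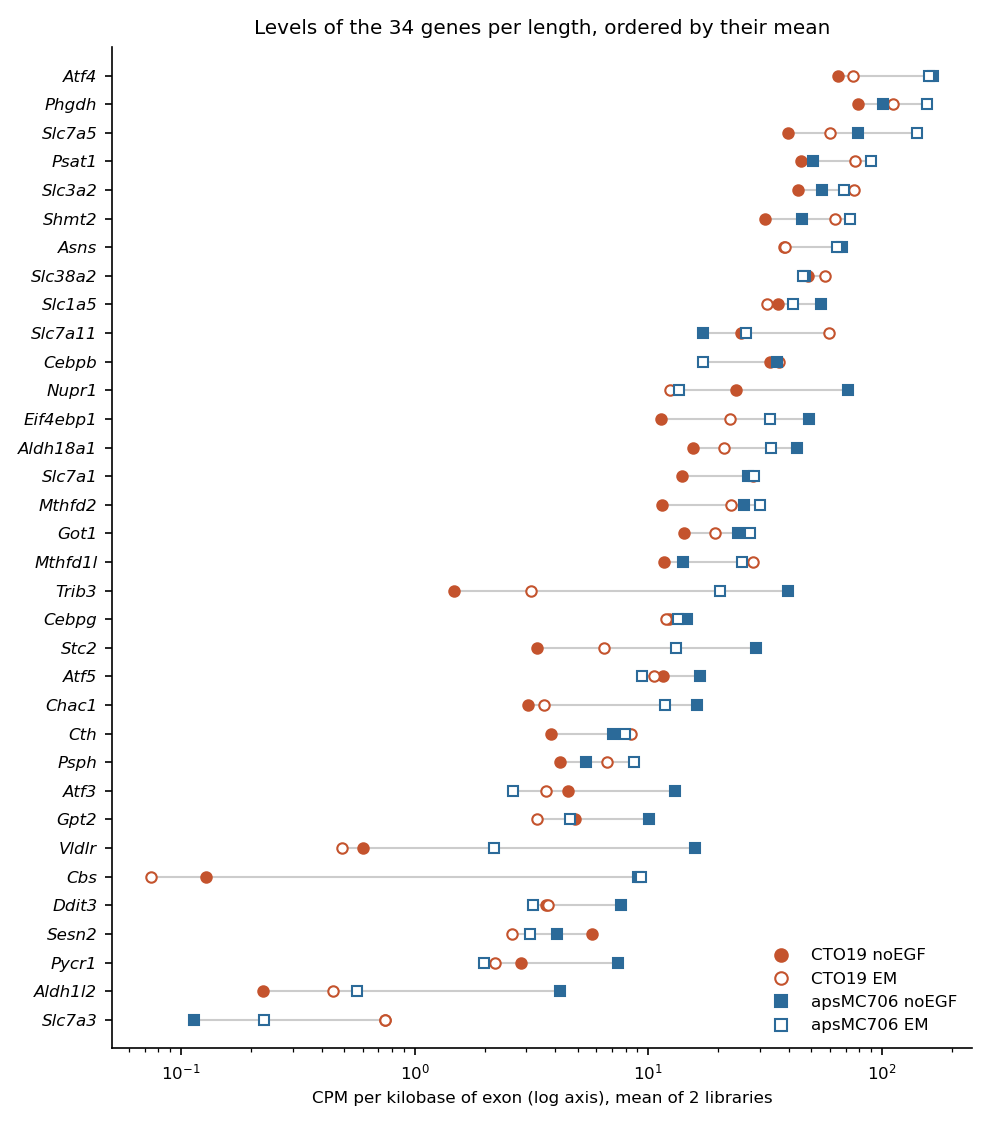
Mean level of the 34 genes per length (CPM per kilobase of exon, log axis) in the 4 groups, ordered from the highest mean over groups at the top; circles are CTO19, squares apsMC706, filled noEGF and open EM. Atf4 and Phgdh stand at the top and Slc7a3 at the bottom, and the spread between groups is widest for Cbs, Vldlr, Trib3 and Aldh1l2.

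Per length of exon, Atf4 had the highest mean level of the 34 genes. It averaged 64.9 ± 1.03 CPM per kilobase in CTO19 noEGF, 75.2 ± 1.48 in CTO19 EM, 166 ± 1.70 in apsMC706 noEGF and 159.8 ± 6.32 in apsMC706 EM (SD, n = 2 each). Phgdh followed with 78.9 ± 1.34, 111 ± 6.00, 101 ± 1.43 and 156 ± 1.27 CPM per kilobase in the same groups, so that in both CTO19 groups its mean level was above that of Atf4. Slc7a3 was lowest, with 0.745 ± 0.108 in CTO19 noEGF, 0.743 ± 0.106 in CTO19 EM, 0.114 ± 0.0226 in apsMC706 noEGF and 0.227 ± 0.0254 in apsMC706 EM (SD, n = 2 each).

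Among the 9 genes with the CARE letters named above, 6 rose and 2 fell in apsMC706 (median log2 fold change 0.97). In CTO19 4 of them rose and 3 fell (median -0.02). Over all tested genes 34.1% rose and 33.1% fell in apsMC706, and 34.7% rose and 33.3% fell in CTO19. The other 19 members with a promoter in the table had 8 higher and 7 lower in apsMC706 (median 0.04), and 3 higher and 13 lower in CTO19 (median -0.44). The 6 members without a promoter in the table had 3 higher and 2 lower in apsMC706 (median 0.12). In CTO19 they had 1 higher and 4 lower (median -0.79). The difference of the responses was lower in CTO19 for 8 of the 9 (median -1.47) and for 13 of the 19 (median -0.43). It was lower for 4 of the 6 (median -0.61), and for 25.6% of all tested genes. Aldh1l2, with the largest difference of all members (-3.89), was one of these 6. The 9 genes ran from Vldlr and Nupr1, which rose most in apsMC706, to Slc7a11, which fell in both lines. Other motifs were searched in the same windows. The E-box CACGTG stood in 3 of the 28 genes (10.7%), against 8.09% of all genes in the table, and the antioxidant response letters TGACNNNGC stood in 8 (28.6%), against 14% of all genes. Nupr1 held both the CARE letters and the E-box, and Asns held both the CARE and the antioxidant letters, without overlap in either.

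**Figure D4:**
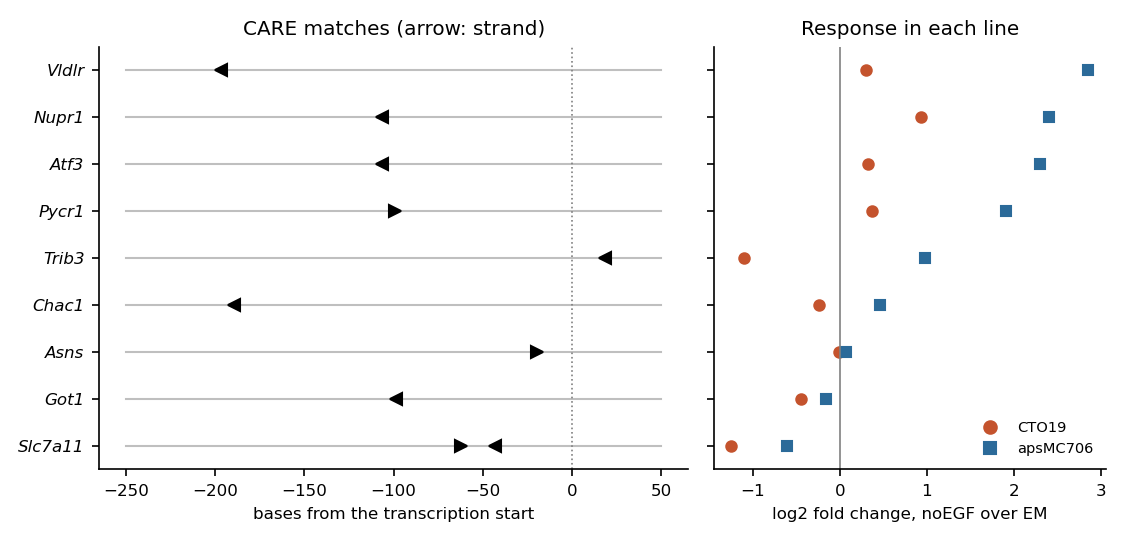
Left, position of each CARE match (arrowheads, pointing along its strand) in bases from the transcription start of the 9 genes; right, their log2 fold change of noEGF over EM in CTO19 (circles) and apsMC706 (squares). Matches lie within 200 bases before the start except in Trib3, and all 9 genes have the apsMC706 symbol to the right of the CTO19 symbol.

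Lists of related genes outside the 34 were read in the same fit. For the counts below, 25.5% of all tested genes rose and 23.3% fell over both lines. In CTO19 34.7% of all tested genes rose and 33.3% fell, and in apsMC706 34.1% rose and 33.1% fell. The difference of the responses was lower in CTO19 for 25.6% and higher for 30.4%. Of 14 genes for eIF2 kinases, eIF2 and eIF2B subunits and phosphatase partners, 3 rose and 5 fell over both lines. Those that rose were Eif2ak3, the kinase PERK (0.61, adjusted p = 0.000526), Ppp1r15a, the stress-induced phosphatase partner GADD34 (0.85, adjusted p = 0.00172), and Eif2ak2, the kinase PKR (0.42, adjusted p = 0.0182), and the smallest p among the falls belonged to Eif2b1, Eif2s1 and Eif2b5. Ppp1r15a, itself an ATF4 target, had 27.7 and 25.8 CPM in CTO19 noEGF, against 19.2 and 17.0 CPM in CTO19 EM, and 35.0 and 35.6 CPM in apsMC706 noEGF, against 15.1 and 17.1 CPM in apsMC706 EM. It rose without overlap in both lines.

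Of 12 other reported ATF4 targets, 4 rose and 3 fell in CTO19 (median 0.02), and 11 rose and 1 fell in apsMC706 (median 0.79). Bbc3, which encodes the cell death protein PUMA, rose 2.62-fold in CTO19 and 3.07-fold in apsMC706, and Pck2, the mitochondrial PEPCK, rose 1.51-fold and 2.25-fold. Fgf21, a secreted stress hormone, was at most 1.55 CPM in every library, with 1.55 and 1.06 CPM in apsMC706 noEGF, against 0.370 and 0.327 CPM in apsMC706 EM. Vegfa, the vascular growth factor, was picked out after its values were seen: it had 3.85 and 3.40 CPM in CTO19 noEGF, against 15.0 and 15.6 CPM in CTO19 EM, and 126 and 127 CPM in apsMC706 noEGF, against 29.6 and 30.1 CPM in apsMC706 EM. It fell in CTO19 and rose in apsMC706, with a difference of -4.16 on the log2 scale (adjusted p = 2.33e-13).

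The chaperones and sensors of the ER, which share the kinase PERK with the ATF4 pathway and otherwise answer to ATF6 and XBP1, also split by line. Of 18 genes, 6 rose and 11 fell in CTO19 (median -0.39), and 17 rose and 1 fell in apsMC706 (median 0.45). The response was lower in CTO19 for 15 of the 18 and higher for 1. Over both lines 6 rose and 1 fell. The rises of smallest p were those of Sel1l, which helps clear misfolded proteins from the ER (0.35, adjusted p = 0.00355), Dnajb9, an ER co-chaperone (0.62, adjusted p = 0.00701), and Ern1, the stress sensor IRE1 (0.36, adjusted p = 0.0126), and the gene that fell was Edem1 (-0.36, adjusted p = 0.0036). Xbp1, which encodes a factor activated by IRE1, was picked out after its values were seen: it had 82.0 and 94.0 CPM in CTO19 noEGF, against 74.1 and 78.6 CPM in CTO19 EM, and 308 and 305 CPM in apsMC706 noEGF, against 107 and 107 CPM in apsMC706 EM.

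**Figure D5:**
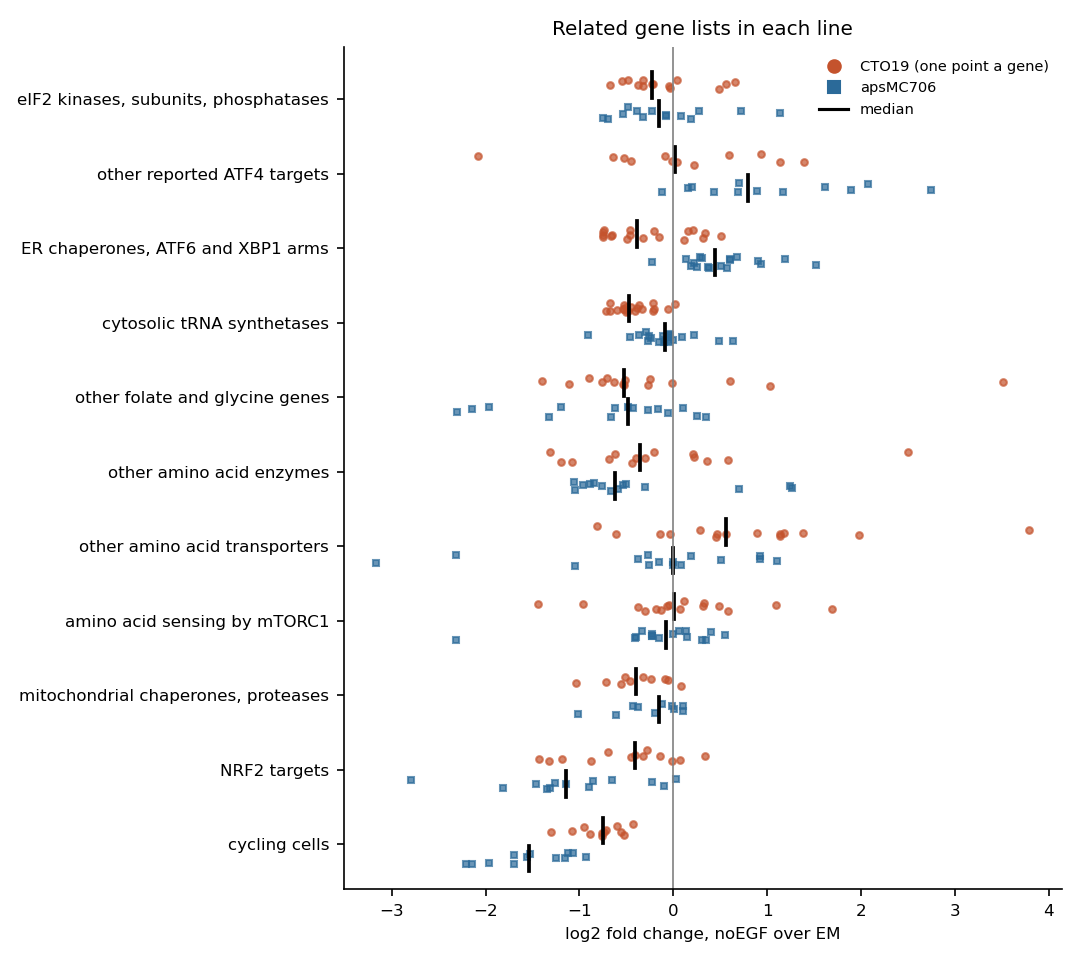
Log2 fold change of noEGF over EM for each gene of 11 related lists in CTO19 (circles) and apsMC706 (squares), with the median of each list as a black bar. The other ATF4 targets and the ER list lie to the right in apsMC706 and not in CTO19, and the cell cycle list lies to the left in both lines.

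Of 20 cytosolic enzymes that charge tRNAs with amino acids, a class that ATF4 can induce, 18 fell and none rose in CTO19 (median -0.47), and 9 fell and 3 rose in apsMC706 (median -0.09). Over both lines 12 fell and none rose, with the smallest p for Farsa, Farsb and Hars. Of 15 other folate and glycine genes, 11 fell in each line, and over both lines the fall had the smallest p for Mthfd1, Gcsh and Shmt1 (-1.22, -1.04 and -0.57), while Amt, of the glycine cleavage system, rose (0.69). Among 14 tested amino acid enzymes outside the 34, 2 rose and 8 fell over both lines. Glul, the glutamine synthetase, was the largest rise, with 132 and 213 CPM in CTO19 noEGF, against 29.1 and 31.7 CPM in CTO19 EM, and 76.7 and 78.4 CPM in apsMC706 noEGF, against 31.2 and 33.2 CPM in apsMC706 EM.

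Of 15 tested amino acid transporters outside the 34, 11 rose and 1 fell in CTO19, and 4 rose and 4 fell in apsMC706. Slc6a14, a broad importer of neutral and cationic amino acids, rose in both, with 57.3 and 56.1 CPM in CTO19 noEGF, against 14.5 and 14.2 CPM in CTO19 EM, and 17.3 and 18.0 CPM in apsMC706 noEGF, against 8.07 and 8.36 CPM in apsMC706 EM. Among 16 tested genes of amino acid sensing by mTORC1, 4 rose and 4 fell over both lines. This was close to the shares over all tested genes, 25.5% and 23.3%. Sesn1 and Sesn3, the sestrin relatives of Sesn2, were among those that rose (0.49 and 0.82). Of 13 genes of the antioxidant factor NRF2, which also controls Slc7a11, 10 fell and 1 rose in CTO19, and 11 fell and none rose in apsMC706, including Gclm, Gclc and Gsr in both lines.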

How the data were processed

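The files hold raw counts of reads per gene, deposited by the authors as 1 table over all 8 libraries. Per the labels' protocols, RNA was isolated with a PureLink kit and poly(A)+ libraries were made with NEBNext reagents, a kit that does not mark strand. Per the submitters' processing notes, STAR 2.7.0a and the mm10 build were used; which program counted reads, with what strand setting and on which annotation release, is not given in the sources used here. Totals ran from 35650262 to 38953838 counts, so that 3 counts, the limit a count of 0 allows, came to 0.0745 to 0.0868 CPM, for counting error only.

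Genes were filtered with edgeR 4.0.16 (filterByExpr, R 4.3.3), which left 16719 genes, and scaled by TMM. The quasi-likelihood test with Benjamini-Hochberg adjustment over all tested genes was used throughout, at an adjusted p of 0.05. The comparison over both lines was fitted with line plus medium and left 5 residual degrees of freedom, and the comparisons within lines, between lines and of the difference of the responses used 4 group means (4 residual degrees of freedom). Standard errors are the fold change divided by the root of the quasi-likelihood statistic. The test was checked on simulated data in which both lines had the same medium effect. That check does not cover lines that respond differently. CPM were computed from the counts with TMM factors and divided by exon length for levels per length.

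The 34 genes and the other lists were chosen with earlier results of these data known, so no count of theirs is independent support. All 34 members are named, and of each other list up to 3 genes of smallest p in each direction over both lines, or the 2 of smallest p where none passed, with exceptions said to be chosen after their values were seen. Replicate numbers are shared between groups, but deviations of same-numbered libraries correlated by 0.0199 to 0.175 over 10119 genes, so the numbers were not taken to pair them. Alternatives were DESeq2 1.42.0 size factors and Wald test, upper-quartile factors, no filter, limma 3.58.1 with voom, a test against a fold of 1.5, a replicate block, replicates added together, the 4 libraries of a comparison alone, and leaving out each library.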

Additional observations from a re-analysis of the deposited data

Results flagged for a closer look

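For 29 of the 34 genes the response to the medium differed between the lines, by a test of the difference of the log2 fold changes (noEGF over EM), CTO19 minus apsMC706, in the edgeR fit of 4 group means; 56.0% of all tested genes passed the same test. Among the factors the difference was -0.2644 for Atf4, -1.9804 for Atf3, -0.6965 for Atf5, -1.2725 for Ddit3, -1.1756 for Cebpb, -1.4723 for Nupr1 and -2.0805 for Trib3. Among the effectors it was -0.6988 for Chac1, 0.7518 for Sesn2, -1.5284 for Eif4ebp1, -2.5611 for Vldlr and -2.0902 for Stc2. Among the serine and folate enzymes it was -0.3068 for Shmt2, -0.7757 for Mthfd2, -0.4315 for Mthfd1l and -3.8877 for Aldh1l2. Among the other enzymes it was -0.8078 for Aldh18a1, -1.5338 for Pycr1, -0.5958 for Gpt2, -0.2773 for Got1, -0.9872 for Cth and 0.8458 for Cbs. Among the transporters it was -0.6354 for Slc7a11, 0.2373 for Slc7a5, -0.4906 for Slc3a2, -0.906 for Slc7a1, 1.0003 for Slc7a3, -0.2397 for Slc1a5 and -0.2872 for Slc38a2. The calls for Cbs, Slc7a5 and Slc7a3 were lost under some alternatives, and the other 26 kept theirs under all but the test against a fold of 1.5. With 1 culture line on each side, a difference between lines cannot be told apart from the sex of the mouse.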

How the results depend on the processing

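Apart from the test against a fold of 1.5, 24 of the 28 calls in apsMC706, 24 of 28 in CTO19, 26 of 29 for the difference of the responses, 23 of 30 between lines in EM and 32 of 32 between lines in noEGF were kept under every alternative run. Over both lines none of the 20 was kept under all, since adding the replicates together, which leaves fewer samples, called 0 higher, 0 lower and 0 of all genes in edgeR (2809 genes at an unadjusted p under 0.05). A replicate block left 5 members higher over both lines, in place of 8, with 10 lower, and took the calls from Atf3, Atf5, Vldlr, Cth and Slc7a1 there, from Mthfd2 in apsMC706 and from Cbs in the difference, and from no other member. Upper-quartile factors and DESeq2's Wald test each called 2 members higher for the difference, in place of 4, and the cause was not tested. Against a fold of 1.5, members called higher and lower numbered 1 and 4 over both lines (2221 of all genes), 11 and 4 in apsMC706 (4331), 2 and 12 in CTO19 (3641), 0 and 13 for the difference (3194), 3 and 9 between lines in EM (5537) and 1 and 20 between lines in noEGF (7293).

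Leaving out 1 library gave 4 to 9 members higher and 8 to 12 lower over both lines (6889 to 7376 of all genes), 16 to 20 and 9 to 11 in apsMC706 (10017 to 11500), 5 to 8 and 19 to 21 in CTO19 (10437 to 11097), 1 to 4 and 25 to 27 for the difference (8298 to 9209), 5 to 8 and 18 to 22 between lines in EM (10756 to 12132), and 3 to 3 and 29 to 30 between lines in noEGF (12412 to 13581). A group left with 1 library was assumed to vary like the others.

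Among the values of the 34 genes, signs turned only where the value was not called, and the cause was not tested. DESeq2 size factors moved all tested genes by a median of 0.0579 in apsMC706, -0.0494 for the difference and -0.0618 between lines in noEGF. For upper-quartile factors these median shifts were 0.0781, -0.0741 and -0.0961. With the size factors of DESeq2, with upper-quartile scaling, with every gene kept and with the Wald test, in that order, Cbs in apsMC706 was 0.0088, 0.0289, 0.0176 and 0.0089, the difference for Psph was -0.0357, -0.0606, -0.0718 and -0.0358, and Slc38a2 between lines in noEGF was -0.029, -0.0633, -0.0552 and -0.029, with -0.0547 in its 4 libraries alone. Aldh18a1 over both lines was 5e-04 and 0.0086 with the first and second of these, the difference for Psat1 was -0.0126 with upper-quartile factors and -0.0237 with no filter, Slc7a3 in CTO19 was -0.0122 with no filter, and Trib3 over both lines was -0.0146 with the Wald test and -0.0516 with replicates added together. Leaving out 1 library gave, over both lines, -0.1254 to 0.0134 for Atf4, -0.2926 to 0.3928 for Trib3, -0.0033 to 0.2934 for Chac1, -0.418 to 0.0673 for Eif4ebp1, -0.1843 to 0.5231 for Stc2 and -0.1326 to 0.1354 for Aldh18a1. It gave -0.1203 to 0.0432 for Cbs in apsMC706, and in CTO19 -0.072 to 0.0219 for Ddit3, -0.0051 to 0.0873 for Cebpg, -0.0752 to 0.0574 for Asns and -0.1426 to 0.1588 for Slc7a3. The difference was -0.0301 to 0.1042 for Psat1 and -0.0919 to 0.0583 for Psph, and between lines Slc7a1 was -0.0523 to 0.0088 in EM and Slc38a2 -0.0777 to 0.0611 in noEGF. Depth limits Cbs in CTO19 and Slc7a3, whose counts are low.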

Other observations

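Of 10 mitochondrial chaperones and proteases, 7 fell and none rose in CTO19, where 33.3% of all tested genes fell, and 6 fell and none rose in apsMC706, where 33.1% fell; over both lines 5 fell, against 23.3% of all tested genes. Hspd1, the chaperonin HSP60, had 396 and 375 CPM in CTO19 noEGF, against 778 and 805 CPM in CTO19 EM, and fell 2.05-fold there and 2.03-fold in apsMC706, while its partner Hspe1 fell 1.64-fold and 1.53-fold. Oat, ornithine aminotransferase, had 46.2 and 43.1 CPM in CTO19 noEGF, against 110.3 and 112 CPM in CTO19 EM, and 247 and 241 CPM in apsMC706 noEGF, against 504 and 509.9 CPM in apsMC706 EM. Its noEGF libraries lay below its EM libraries in each line. Ass1, argininosuccinate synthase, fell 2.11-fold in CTO19 and 2.07-fold in apsMC706, and Got2, the mitochondrial aspartate aminotransferase, fell 1.54-fold and 1.85-fold. Slc43a2, a leucine-type amino acid transporter, and Slc16a10, an aromatic amino acid transporter, rose in both lines, 1.47-fold and 2.20-fold in CTO19 and 1.89-fold and 1.14-fold in apsMC706. Among the mTORC1 genes Nprl3, part of the GATOR1 complex, rose over both lines (0.32), and Akt1s1, Rheb and Rragc fell (-0.35, -0.30 and -0.21).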
